A study of Mus musculus with 15 samples.

Results

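The c-Jun N-terminal kinase (JNK) cascade was followed through the transcripts of its kinases in mouse hearts that carry the H222P substitution on 1 allele of Lmna, the gene of the nuclear lamins A and C. The gene set held 8 kinases chosen by name: the JNK genes Mapk8, Mapk9 and Mapk10, their direct activators Map2k4 and Map2k7, and the upstream kinases Map3k1, Map3k2 and Map3k5. Every probe set annotated to exactly 1 of these symbols was taken, which gave 20 of 45101 probe sets on the array for 7 of 18193 named genes. Map2k7 had no such probe set in the annotation and was not analysed here. Total RNA from whole hearts of male mice labelled as 10 weeks was hybridised to Affymetrix expression arrays, 1 array per mouse. There were 7 Lmna H222P heterozygous hearts and 8 control hearts. The labels give neither the strain nor the exact genotype of the controls, and they number the mice within each group, so the p-values speak to the variation among these 15 mice only. Values are deposited signals on a linear scale or their log2, and differences are heterozygous minus control on the log2 scale.

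JNKs are stress-activated protein kinases that sit at the end of a relay of phosphorylation steps. A MAP3 kinase such as MEKK1 or ASK1 activates a MAP2 kinase, MKK4 or MKK7, which phosphorylates JNK on a threonine and a tyrosine of its activation loop, and JNK then phosphorylates c-Jun and other factors. In heart muscle the pathway is known for its response to stretch, oxidants and pressure load, and it has been studied in hearts with lamin mutations. Its activity is set by phosphorylation, which an expression array does not measure, so the values below are transcript levels only. In whole-heart RNA, fewer cells of a type and less RNA per cell cannot be told apart.

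None of the 20 probe sets passed the test between genotypes, so no kinase of the set is called higher or lower in heterozygous hearts. The test was limma's moderated test with Benjamini-Hochberg adjustment over all 38870 tested probe sets, of which 98 passed at 0.05 (0.252%). The smallest adjusted p among the kinases was 0.0855, for a weak probe set of Map3k1. At an unadjusted p under 0.05 there were 4 of 20 kinase probe sets, against 14.6% of all tested probe sets. All 4 were higher in heterozygous hearts, where 4.44% of all tested probe sets were higher and 10.1% lower. They belonged to Map3k1, Mapk10, Mapk8 and Map3k5, 1 probe set of each, and the other probe sets of these genes were above that level. The count is a description, and it includes a Map3k1 probe set that entered the test through its heterozygous arrays. Without the 4 arrays of highest Actb ratio, a measure of RNA integrity given below, there were 6, of which 3 were higher (Map3k1, Mapk10 and Map2k4) and 3 lower (Mapk9, Map3k2 and another probe set of Mapk10). In that fit 15% of all tested probe sets were at this level, 3.28% higher and 11.7% lower. With every array shifted to a common median, 5 of 20 kinase probe sets were at that level, all higher, against 15.6% of all tested probe sets in either direction and 10.8% higher. Groups that did not overlap at all were found in 0 of 20 kinase probe sets and in 0.468% of all tested probe sets. The kinase differences ranged from -1.29 to 1.73 with a median of 0.01, and 10 of 20 were above 0. Over all tested probe sets the median was -0.11 and 39.9% were above 0. These 2 sets are unlike in signal, and only 4 of the 20 kinase probe sets had a mean log2 signal under 6. The median over all tested probe sets was -0.31 at mean log2 signals of 4 to 5, -0.07 at 7 to 8 and 0.01 at 8 to 9. Centring moved the median of all tested probe sets to 0.10.

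**Figure D1:**
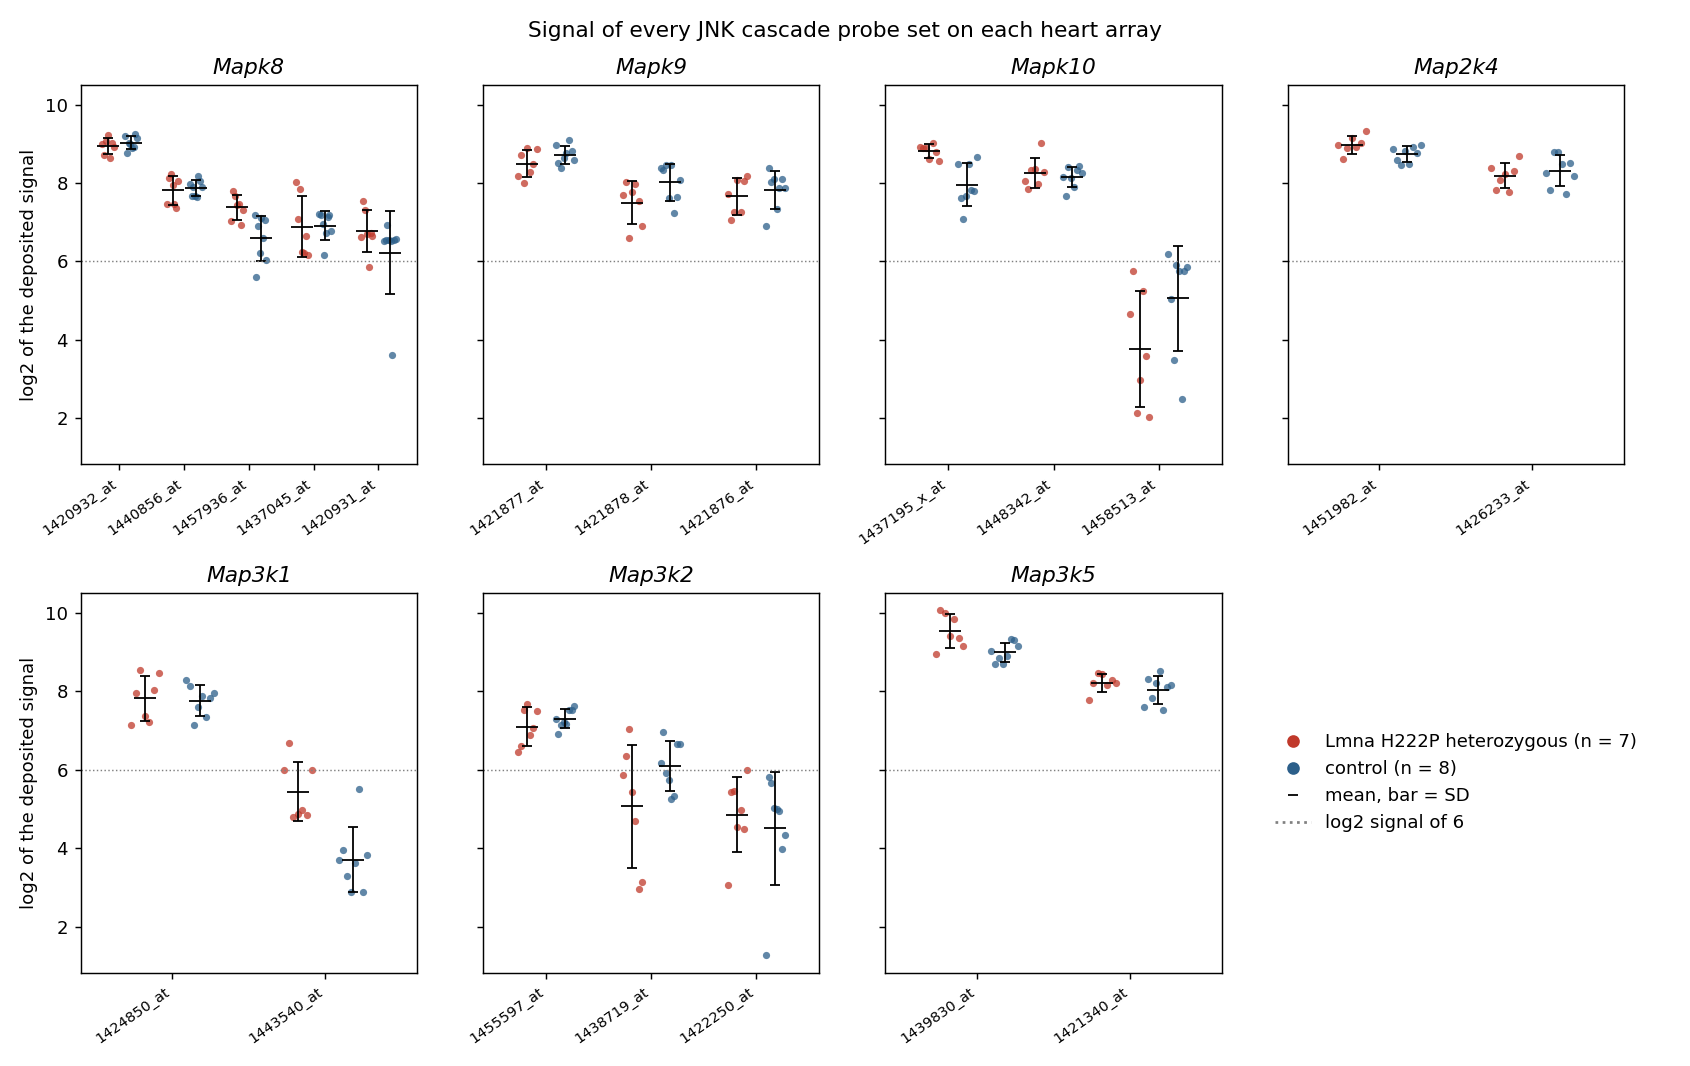
Log2 of the deposited signal (vertical axis) for each probe set of the 7 kinase genes (horizontal axis), with heterozygous hearts in red left of control hearts in blue. Points are single arrays, and black marks are means with SD over 7 heterozygous and 8 control hearts. The groups overlap in all 20 probe sets, and the scatter is widest in those near or below a log2 signal of 6.

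Some facts of the whole data set touch these values. Array medians lay between 56.7 and 94.2 signal units, with a mean log2 of 6.14 ± 0.20 (SD, n = 7) in heterozygous hearts and 6.34 ± 0.14 (SD, n = 8) in control hearts (exact two-sided permutation p = 0.0367, adjusted over 3 array measures 0.0550). The 5 genes listed as markers of ventricular muscle (Myl2, Myl3, Myh6, Tnni3 and Irx4) were bright on every array. Their summed signal was 61568.4 to 170494.4 units in heterozygous hearts and 80470.3 to 251367.3 units in control hearts. That sum is not a measure of ventricular as against atrial muscle. Of 9 markers of atrial muscle 3 passed, all higher in heterozygous hearts, and of the 9 differences 7 were above 0 and 2 below. Their summed signals were 11303.2 to 42439.8 units in heterozygous hearts, against 7310.4 to 11798.5 units in control hearts. Their mean log2 signals were 9.28 ± 0.58 (SD, n = 7) in heterozygous hearts and 7.44 ± 0.53 (SD, n = 8) in control hearts (exact two-sided permutation p = 0.000466, adjusted over the same measures 0.0014). The list was chosen with earlier results of these data known, and its mean includes the 3 genes that passed. This p-value is therefore a description and not separate support. By that mean control array 6 lay highest among controls, at 8.62 where the next had 7.64, while the highest control sum was that of array 4. Of 5 fibroblast markers 0 passed and 5 were above 0, with summed signals of 13585.7 to 22204.1 units in heterozygous hearts and 7180.8 to 11232.8 units in control hearts. Of 5 blood markers 2 fell, with sums of 1697.7 to 3365.7 units in heterozygous hearts and 3429.4 to 4243.3 units in control hearts. Neuronal and Schwann cell markers overlapped between the groups, at 535.2 to 954.1 units in heterozygous hearts and 481.4 to 985.4 units in control hearts over 6 genes. The sums of adipocyte markers, like those of fibroblast and blood markers, did not overlap, at 280.4 to 1214.5 units in heterozygous hearts and 82.9 to 274.3 units in control hearts. Of the 3 adipocyte genes 0 passed, 2 were above 0, and Retn lay at -0.17. Taken singly, each of the 3 adipocyte genes overlapped between the groups. Macrophage and endothelial markers overlapped, with 0 of 5 passing in each. The log2 ratio of the 3-prime to the 5-prime Actb control probe set, which rises when RNA is degraded or labelled short, was highest on heterozygous arrays 2, 5 and 3 and on control array 6, at 1.69, 1.41, 1.32 and 1.23. Its means were 0.91 ± 0.55 (SD, n = 7) in heterozygous hearts and 0.64 ± 0.30 (SD, n = 8) in control hearts (exact two-sided permutation p = 0.235, adjusted 0.235). The part of cell makeup and RNA quality in the kinase values was not tested beyond the fits given beside them.

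At the top of the cascade, no probe set of the MAP3 kinase genes passed. Probe sets of the same gene had overlapping 95% intervals for Map3k5 and Map3k2, but not for Map3k1. Map3k5 encodes ASK1, a kinase held inactive by thioredoxin and released by oxidants, which feeds both JNK and p38. In its brighter probe set, 1439830_at, signals were 494.7 to 1069.3 units with a median of 676.8 in heterozygous hearts, against 414.9 to 641 units with a median of 500.85 in control hearts. Of the 7 heterozygous arrays 5 lay above every control array, and the lowest lay inside the control range. The difference was 0.55 (95% interval 0.14 to 0.95), or 1.46-fold, and limma's adjusted p was 0.223. The 3 highest heterozygous arrays were arrays 2, 3 and 5, the same ones that had the highest Actb ratios. With that ratio as a covariate the difference was 0.36 (adjusted p = 0.238), and without the 4 arrays of highest ratio it was 0.27 (adjusted p = 0.498). With the atrial marker mean as a covariate it was 0.0009 (adjusted p = 0.999); that mean itself differed between the groups. The other Map3k5 probe set, 1421340_at, had 220.1 to 354.7 units in heterozygous hearts and 184.6 to 363.8 units in control hearts. The heterozygous arrays all fell within the control range, and the difference was 0.19 (-0.17 to 0.56).

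Map3k1 encodes MEKK1, which activates MKK4 and MKK7 and also carries a ubiquitin ligase domain. Its brighter probe set, 1424850_at, gave 141.7 to 369.9 units with a median of 247.4 in heterozygous hearts and 139.9 to 310.4 units with a median of 230.95 in control hearts. The groups lay on top of each other, with a difference of 0.05 (-0.48 to 0.59) and limma's adjusted p = 0.944. The weak probe set 1443540_at read 27.8 to 102 units with a median of 31.2 in heterozygous hearts and 7.4 to 45.8 units with a median of 12.65 in control hearts. All controls but array 6 were below every heterozygous array, and array 6 alone, at 45.8 units, was above 4 of them. The difference of 1.73 (0.89 to 2.58), a ratio of 3.33, was the largest of the 20 and had an adjusted p of 0.0855. Without control array 6 it was 1.99 and passed (adjusted p = 0.0307). It also passed without the 4 arrays of highest Actb ratio, at 1.97 (adjusted p = 0.0402). Control array 6 is 1 of those 4, so that fit, on 11 arrays, is not a separate result. This probe set exceeded the filter at a log2 signal of 4 on 8 arrays, the 7 heterozygous ones and control array 6, so it was tested only because it was higher there. All but 1 of its 15 signals lay under a log2 signal of 6. With signals under that level set to it, the difference was 0.10 (adjusted p = 0.685).

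Map3k2 encodes MEKK2, which can activate both the JNK and the ERK5 branch. Probe set 1455597_at, the brightest of its 3, had 86.9 to 205.8 units with a median of 133.5 in heterozygous hearts and 119.7 to 196.4 units with a median of 152.1 in control hearts. The heterozygous arrays reached both lower and higher than the controls, and the difference was -0.20 (-0.63 to 0.24). The remaining probe sets were dim and went opposite ways without passing. Probe set 1438719_at had 7.7 to 131.9 units in heterozygous hearts and 38.3 to 125.4 units in control hearts, a difference of -1.02 (-2.23 to 0.18). It was -1.85 (adjusted p = 0.191) without the 4 arrays of highest Actb ratio. Probe set 1422250_at had 8.4 to 63.9 units in heterozygous hearts and 2.4 to 56.7 units in control hearts, a difference of 0.35 (-0.94 to 1.63), and all 15 of its signals were under a log2 signal of 6.

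In the middle tier only Map2k4 was measured. It encodes MKK4, a dual-specificity kinase that phosphorylates JNK and also p38. Probe set 1451982_at gave 388.4 to 641.1 units with a median of 499.6 in heterozygous hearts, against 355 to 505.1 units with a median of 445.1 in control hearts. Of the heterozygous arrays 3 were above all controls, and 3 controls were below all heterozygous arrays. Its difference was 0.24 (-0.06 to 0.53), or 1.18-fold, and limma's adjusted p was 0.455. Probe set 1426233_at, annotated to the same database record, lay the other way at -0.14 (-0.56 to 0.29), with 220 to 411.5 units in heterozygous hearts and 212.3 to 443.5 units in control hearts. The upper bound of the first interval is a ratio of 1.45, and the lower bound of the second is 0.679 of control.

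The 3 JNK genes are close relatives with different reach: Mapk8 (JNK1) and Mapk9 (JNK2) are transcribed in most tissues, while Mapk10 (JNK3) is known mainly from brain, heart and testis. Mapk8 had 5 probe sets. In the brightest, 1420932_at, signals were 395.3 to 594.7 units with a median of 512.9 in heterozygous hearts and 439.1 to 608.5 units with a median of 514 in control hearts. The medians were almost equal and the interval was the narrowest of all 20 probe sets, with a difference of -0.09 (-0.37 to 0.19) and limma's adjusted p = 0.790. For this probe set, a change to less than 0.776 of control or to more than 1.14-fold lies outside that interval. The bound does not hold for every Mapk8 probe set, as the interval of 1457936_at, given below, was 1.20-fold to 2.48-fold. Probe set 1440856_at had 164.8 to 301.6 units in heterozygous hearts and 200.6 to 292 units in control hearts, a difference of -0.06 (-0.42 to 0.30). Probe set 1437045_at had 71.4 to 259.8 units in heterozygous hearts and 71.4 to 147.6 units in control hearts, a difference of -0.03 (-0.67 to 0.61). In both the groups overlapped, and the heterozygous arrays spread more widely.

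Mapk8 also had a pair of probe sets that read higher in heterozygous hearts. In probe set 1457936_at signals were 122.8 to 221.1 units with a median of 172.3 in heterozygous hearts and 48.7 to 144.5 units with a median of 108.8 in control hearts. Of the heterozygous arrays 5 were above all controls, and 5 controls were below all heterozygous arrays. The difference was 0.78 (0.26 to 1.31), a ratio of 1.72, with an adjusted p of 0.190. Arrays 2, 3 and 5 were again the 3 highest, and the difference was 0.65 with the Actb ratio as a covariate and 0.59 (adjusted p = 0.416) without the 4 arrays of highest ratio. Probe set 1420931_at, annotated to the same record as the brightest one, had 58 to 186.9 units in heterozygous hearts and 12.2 to 122.4 units in control hearts. Its difference of 0.55 (-0.36 to 1.46) rested on control array 6 at 12.2 units, where the other 7 controls lay between 91.4 and 122.4, and it was 0.18 (adjusted p = 0.753) without that array. With the atrial marker mean as a covariate, in which that array was also apart, it was 2.51 (adjusted p = 0.445).

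Mapk9 was the only kinase with 3 probe sets all on 1 side of 0. They are annotated to the same database record and lay at -0.23 (-0.59 to 0.13), -0.52 (-1.08 to 0.03) and -0.17 (-0.69 to 0.35), in order of brightness. In the brightest, 1421877_at, signals were 255.4 to 472.3 units with a median of 356.1 in heterozygous hearts, against 334.2 to 545.5 units with a median of 416.8 in control hearts. Of the heterozygous arrays 3 were below all controls and 2 controls were above all heterozygous arrays. Probe set 1421878_at gave 96.2 to 262.1 units in heterozygous hearts and 149.7 to 352.9 units in control hearts, with 5 controls above every heterozygous array and limma's adjusted p = 0.373. Probe set 1421876_at read 133.6 to 291.1 units in heterozygous hearts and 119.7 to 334.2 units in control hearts, a full overlap. None of the 3 passed, and after median centring the last of them lay at 0.04. The mean of the 3 Mapk9 probe sets gave a difference of -0.31 (limma's adjusted p = 0.284, over all genes).

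Mapk10 had the largest difference among the bright probe sets, and only in 1 of its 3. In probe set 1437195_x_at signals were 376.7 to 519.9 units with a median of 476.4 in heterozygous hearts and 136 to 406.5 units with a median of 224.8 in control hearts. The heterozygous hearts were tightly grouped and the controls spread widely: of the heterozygous arrays 5 were above all controls, and 7 of 8 controls were below all heterozygous arrays. Mean log2 signals were 8.82 ± 0.17 (SD, n = 7) in heterozygous hearts and 7.96 ± 0.54 (SD, n = 8) in control hearts. The difference was 0.86 (0.39 to 1.33), or 1.81-fold, and limma's adjusted p was 0.121. The exception was control array 8 at 406.5 units, and without it the difference was 0.96 (adjusted p = 0.0731). The probe set passed in 1 of 28 alternative fits, with a trended and robust prior (adjusted p = 0.0390). The difference was 0.80 (adjusted p = 0.145) with the Actb ratio as a covariate, and 0.75 (adjusted p = 0.282) without the 4 arrays of highest Actb ratio. With the atrial marker mean as a covariate the difference was 1.10, but its adjusted p was 0.542, and that mean itself differed between the groups. By Affymetrix naming, the suffix x_at marks a probe set with probes that also match other sequences, and the annotation gives no database record for this one.

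The other probe sets of Mapk10 lay near 0 and below it. Probe set 1448342_at gave 230.1 to 519.7 units with a median of 308.4 in heterozygous hearts and 205.3 to 343.9 units with a median of 295.6 in control hearts. The groups coincided apart from heterozygous array 6 at 519.7 units, and the difference was 0.10 (-0.28 to 0.49) with an adjusted p of 0.828. The upper bound of that interval is a ratio of 1.41, below the 1.81 of the first probe set. Probe set 1458513_at was weak, with 4.1 to 53.8 units in heterozygous hearts and 5.6 to 72.4 units in control hearts. Of the controls 5 lay above every heterozygous array, and the difference was -1.29 (-2.75 to 0.16), the lowest of the 20, and -2.11 (adjusted p = 0.148) without the 4 arrays of highest Actb ratio. The mean of the 3 Mapk10 probe sets gave a difference of -0.11 (adjusted p = 0.868, over all genes).

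**Figure D2:**
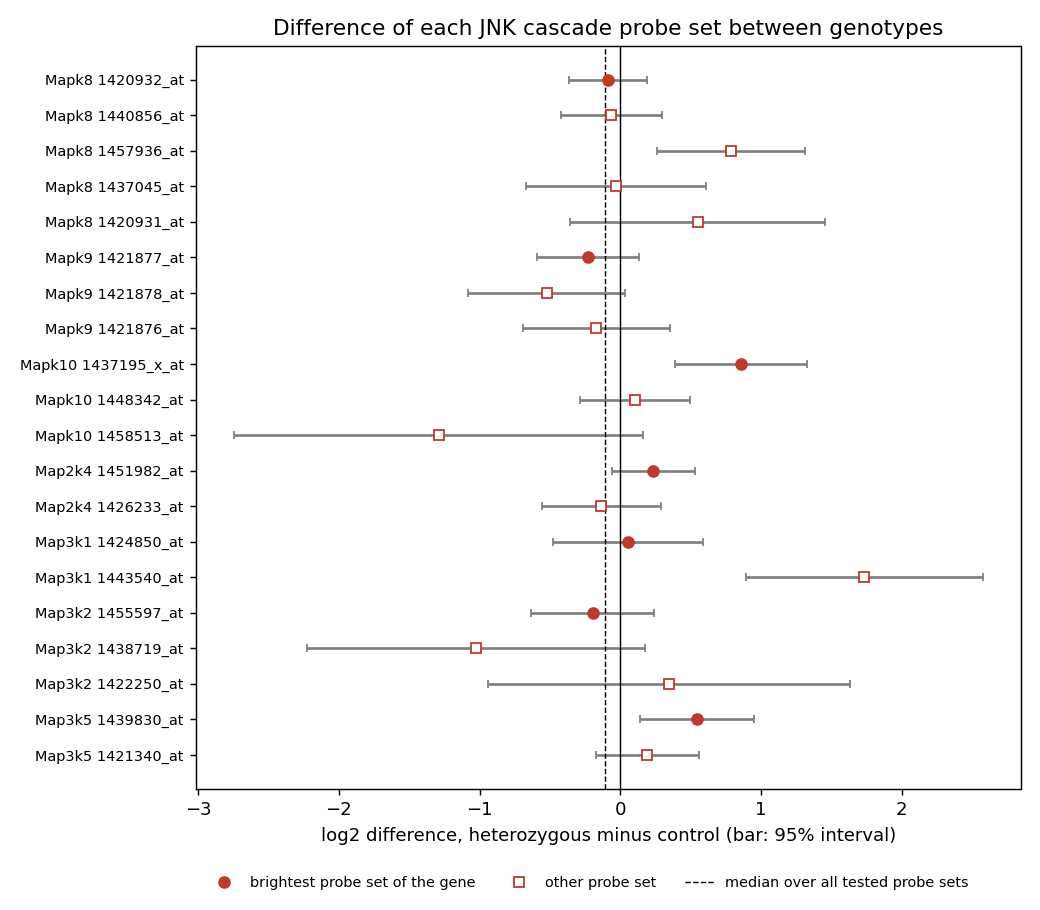
Log2 difference between heterozygous and control hearts (horizontal axis) for each kinase probe set (vertical axis), with the 95% interval of the fit as a bar. Filled circles are the brightest probe set of each gene, open squares the others, and the dashed line is the median of -0.11 over all tested probe sets. Probe sets of Mapk10 run from -1.29 to 0.86 and those of Map3k1 from 0.05 to 1.73.

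How far each probe set could show a change followed its signal. The 8 kinase probe sets with a mean log2 signal of at least 8 had 95% intervals of ±0.28 to ±0.47, while the 4 with a mean under 6 had ±0.84 to ±1.46. Across all tested probe sets the median width was ±0.36 in the bright range and ±1.18 in the weak range. Set against probe sets of like signal, in steps of 1 log2 unit, 2 kinase probe sets lay outside the central 95% of differences. They were Mapk10 1437195_x_at, where that range ran from -0.62 to 0.56, and the weak Map3k1 1443540_at, where it ran from -1.74 to 1.19. The place of the Map3k1 probe set was partly fixed by the filter, which it passed through its heterozygous arrays.

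**Figure D3:**
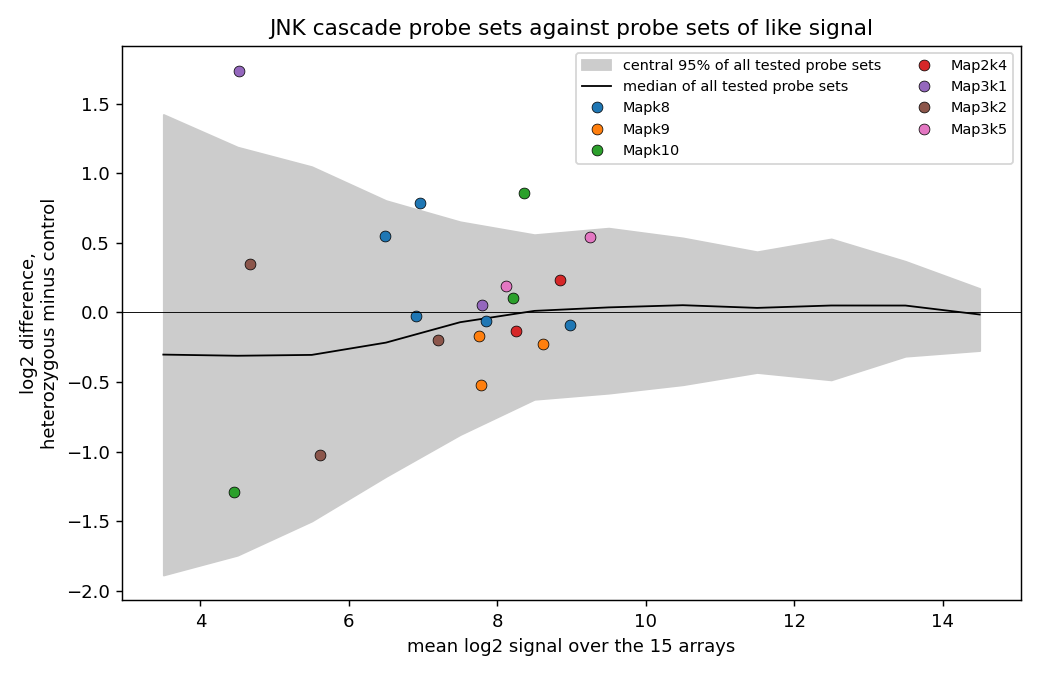
Log2 difference, heterozygous minus control (vertical axis), against the mean log2 signal over 15 arrays (horizontal axis) for the 20 kinase probe sets, coloured by gene. The grey band holds the central 95% of all tested probe sets in steps of 1 log2 unit of signal, joined at the middle of each step. The black line is their median. Mapk10 at 0.86 and Map3k1 at 1.73, which passed the filter through its heterozygous arrays, lie above the band. Mapk8 1457936_at at 0.78 is drawn just above the joined edge, though it lies within the range of its own step, which ends at 0.80. The remaining probe sets lie within the band.

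No correlation from heart to heart was detectable between the 2 brightest probe sets of the same kinase. For each gene the 2 brightest probe sets were compared over the 15 arrays after group means were subtracted, 7 pairs in all. Pearson's r ran from -0.19 for Mapk10 (permutation p = 0.504, Spearman's rho = -0.18, p = 0.523) to 0.27 for Mapk8 (permutation p = 0.332, Spearman's rho = 0.21, p = 0.460). No pair had an adjusted p below 0.917 by either measure. Without the 2 arrays farthest from the median, r was -0.16 for Mapk10 and 0.07 for Mapk8. The pairs annotated to the same record had r = -0.06 for Mapk9 (permutation p = 0.838, Spearman's rho = -0.08, p = 0.793) and r = 0.14 for Map2k4 (permutation p = 0.605, Spearman's rho = 0.11, p = 0.686). Without the 2 farthest arrays these became -0.51 and -0.25. The same comparison over 7882 genes gave a median r of 0.13, and 0.31 over the 2134 genes whose probe sets both had a mean log2 signal of at least 8. Over all 22 pairs of probe sets of 1 kinase the median r was 0.09, against 0.03 over 168 pairs of different kinases. The ranges were -0.43 to 0.51 and -0.65 to 0.64. Within 1 kinase the lowest r was that of Mapk10 1448342_at with 1458513_at, and the highest that of Mapk10 1437195_x_at with 1458513_at. The pairs beyond the first 7 were not tested.

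**Figure D4:**
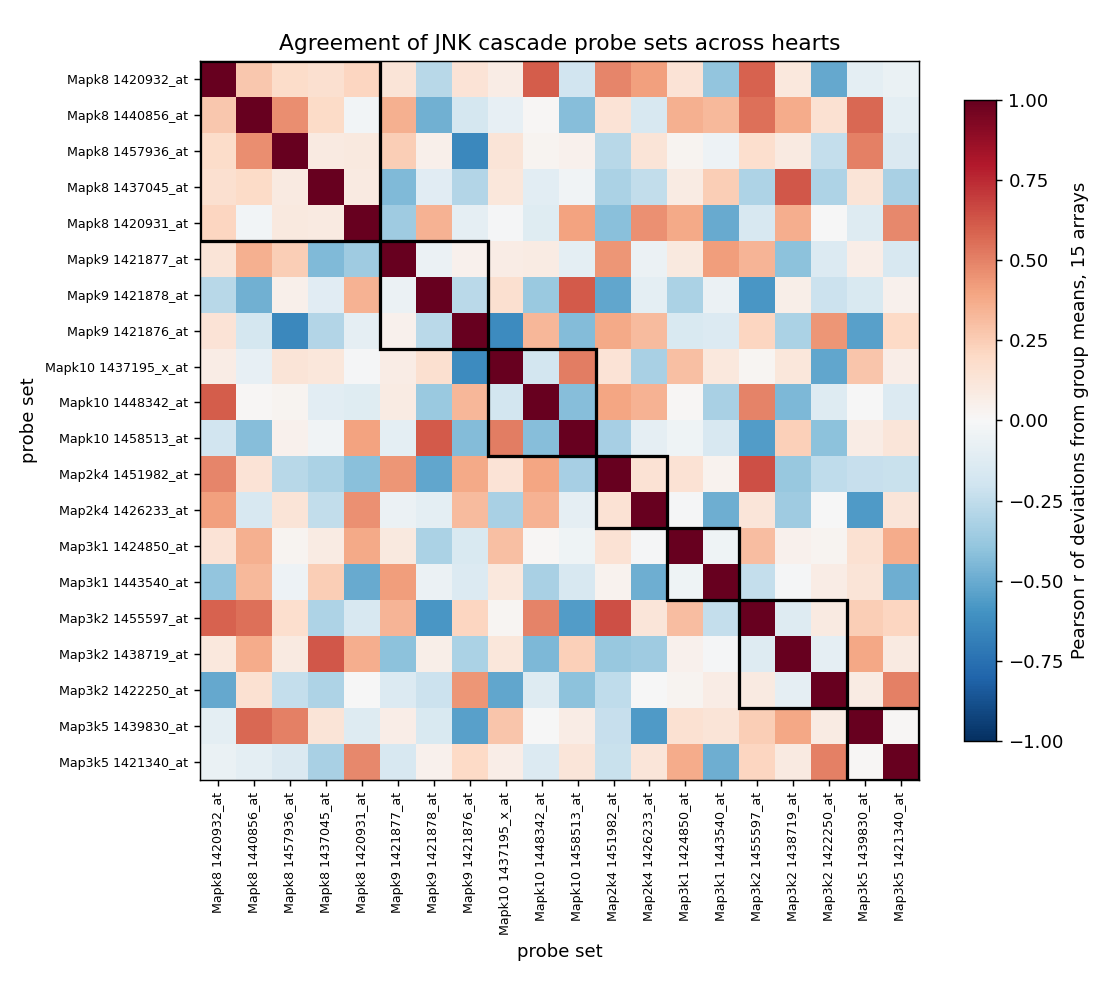
Pearson's r of log2 signals over 15 arrays, after group means were subtracted, for each pair of kinase probe sets (both axes, in the same order). Black frames hold the probe sets of 1 gene. Red is positive and blue negative, and both colours occur inside and outside the frames, with medians of 0.09 inside and 0.03 outside.

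The bright probe sets of the JNK genes had different neighbours among bright probe sets of other genes. Over the same 15 arrays and deviations, Mapk8 1420932_at was most like Wdr7 (r = 0.88), Celf1 (r = 0.87) and Slco5a1 (r = 0.84). Mapk9 1421877_at was most like Nipsnap2, Thra and Ccdc47, at r = 0.81, 0.80 and 0.80. Mapk10 1437195_x_at was most like Lztr1, Syap1 and Steap4, at r = 0.75, 0.73 and 0.71. These are the highest values among 9737 candidate probe sets (9736 for Mapk10) and describe these arrays only.

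No other listed gene of the JNK pathway passed the test either. Of 58 listed genes, 53 had a single-gene probe set and 52 were tested in their brightest one, and 0 rose and 0 fell by limma's test. At an unadjusted p under 0.05 there were 6 of 52, where 14.6% of all tested probe sets were. The median difference of these brightest probe sets was 0.00, against -0.11 over all tested probe sets. The latter median was itself -0.31 at mean log2 signals of 4 to 5 and 0.01 at 8 to 9. Counting every probe set of these genes, 0 of 150 passed and 17 were at an unadjusted p under 0.05, against the same 14.6%.

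Among 22 tested upstream kinases and activators, 0 passed and 0 were at an unadjusted p under 0.05 in their brightest probe sets. Of these 22, 12 were above 0, with a median of 0.03. The smallest p values were those of the TAK1 adaptor Tab2 at 0.30, of Map3k7, which encodes TAK1 itself, at -0.40, and of the mixed lineage kinase gene Map3k10 at -0.57, with adjusted p from 0.369 to 0.531. All probe sets of Map3k7 ran from -0.60 to 0.08 and those of Map3k10 from -0.93 to 0.23. Of 8 scaffolds and adaptors, 0 passed in their brightest probe sets, and the list median was -0.33. Of these brightest probe sets 3 were at an unadjusted p under 0.05, all lower in heterozygous hearts, and that of Wdr62 entered the test through its control arrays. Over all tested probe sets 10.1% were lower at that level. The other probe sets of these genes went both ways. Another Sh3rf1 probe set was higher at that level, at 0.87, as was an Arrb2 probe set at 1.42. A Mapk8ip2 probe set was lower at that level, at -1.72. Mapk8ip1, the scaffold JIP1 that holds a MAP3 kinase, MKK7 and JNK together, had 13.4 to 72.9 units in heterozygous hearts and 56.2 to 88.4 units in control hearts. Its difference was -0.83 (adjusted p = 0.269) and its other probe set lay at 0.33. Sh3rf1, the scaffold POSH, stood at -0.64 (adjusted p = 0.314) with probe sets from -0.81 to 0.87, and Wdr62, a JNK-binding centrosome protein, at -1.74 (adjusted p = 0.274) on signals of 2.6 to 43.2 units in heterozygous hearts and 3.4 to 103.1 units in control hearts. Wdr62 exceeded the filter at a log2 signal of 4 on 7 arrays, the fewest allowed, and most of these were controls. It was thus tested only because it was higher there.

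Of 11 inhibitors and phosphatases, 0 passed in their brightest probe sets, with a list median of 0.01. Of these probe sets 3 were at an unadjusted p under 0.05 (14.6% of all tested probe sets). The phosphatase gene Dusp4 had 16.2 to 132.6 units in heterozygous hearts and 4.3 to 40.9 units in control hearts, a difference of 1.78 (adjusted p = 0.163) on weak signals. Dusp8, a phosphatase that prefers JNK and p38, was bright, at 376.1 to 720.2 units in heterozygous hearts and 533.8 to 759.5 units in control hearts. Its difference was -0.42 (-0.74 to -0.09, adjusted p = 0.236), and its other probe sets ran from -0.75 to 0.43. Dusp22, a phosphatase known to promote JNK activation, stood at -0.31 (adjusted p = 0.325). Of 11 substrates, 0 passed and 0 were at an unadjusted p under 0.05 in their brightest probe sets, with a median of -0.14. The smallest p values were those of the neuronal tubulin regulator Stmn2 at 0.54, of Bcl2l11, the death-promoting protein Bim, at -0.28, and of Map2, a microtubule protein of neurons, at -0.34, with adjusted p from 0.353 to 0.534. Jun, the substrate that gives the kinases their name and is added here outside the naming rule after its values were seen, had 780.6 to 1960.7 units in heterozygous hearts and 931 to 1656 units in control hearts, a difference of -0.27 (adjusted p = 0.551).

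**Figure D5:**
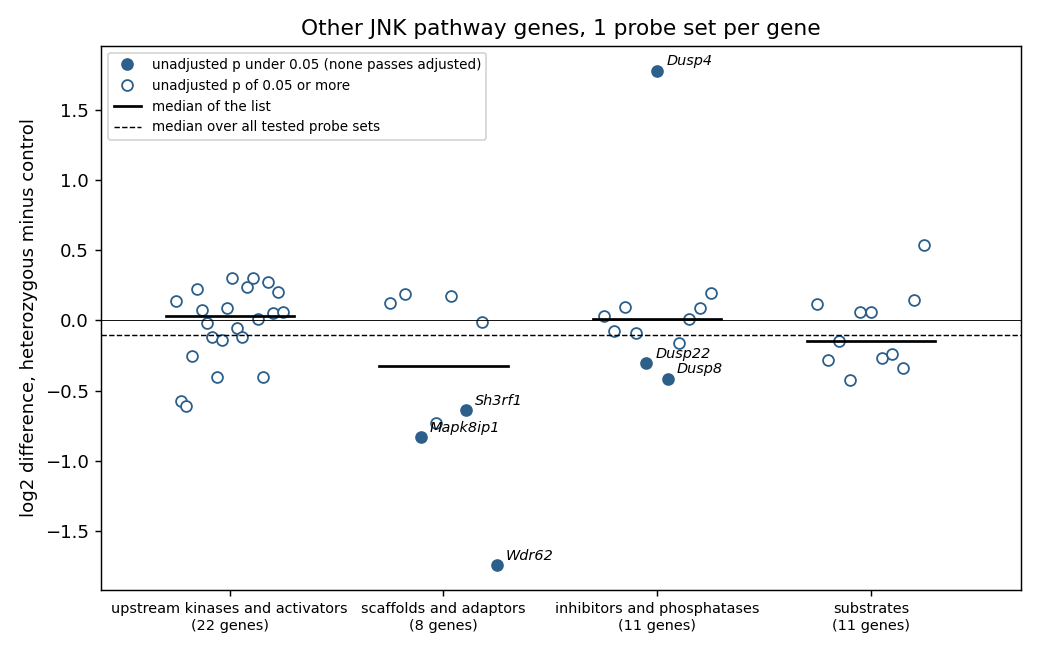
Log2 difference, heterozygous minus control (vertical axis), for the brightest probe set of each JNK pathway gene outside the kinase set, by list (horizontal axis). Filled points have an unadjusted p under 0.05, black bars are list medians and the dashed line is the median over all tested probe sets. No gene passed after adjustment, and Dusp4 at 1.78 and Wdr62 at -1.74, both weak, lie farthest from 0. Wdr62 passed the filter through its control arrays.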

How the data were processed

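Intensities were deposited as 1 linear signal per probe set and array. The submitters' processing notes name GCRMA, with no version given in the sources used here. The linear values had a mean of 250.0 on each of the 15 arrays after trimming 2% at both ends, a target scaling that GCRMA does not include. Detection calls and scan dates were not used here. Probe sets took their gene from the platform annotation (34958 with 1 symbol, 932 with several, 9211 with none). Signals were log2-transformed without a pseudocount. Testing required a log2 signal above 4 on 7 or more arrays, and 64 control probe sets were left out. The comparison used limma 3.58.1 (R 4.3.3), with lmFit and eBayes and two-sided p-values, with Benjamini-Hochberg adjustment over 38870 probe sets, at a threshold of 0.05. The fit was tested on simulated data. Correlations used 100000 permutations (Python 3.11.15). Figures were drawn with matplotlib 3.10.9.

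The kinases and lists were chosen with earlier results of these data known. Named were all kinases, of each pathway list the passing genes or else the 3 with the smallest p, and 3 neighbours per JNK gene. At most 0.29% of values were equal between any 2 arrays. Other filters, a floor, scalings, array weights, priors, covariates, probe set summaries, a replicate block and leaving out each array were tried. Among the listed genes, Plin1, Cfd, Map3k13, Map4k2, Map4k3, Trp53 and Hsf1 had no single-gene probe set in the annotation used here.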

Additional observations from a re-analysis of the deposited data

Results flagged for a closer look

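Of 44 groups of arrays checked, 6 held an array far from the rest by Dixon's criterion, where chance flags about 1 group in 20. Control array 6 was such an array in 3 measures. It had 12.2 units in Mapk8 1420931_at, where the next lowest control had 91.4. It had 45.8 units in Map3k1 1443540_at, where the next highest control had 15.5. Its atrial marker mean was a log2 signal of 8.62, where the next highest control had 7.64. Control array 1 had 2.4 units in Map3k2 1422250_at, below the 15.8 of the next control, and control array 4 had 71.4 units in Mapk8 1437045_at, below 105.9. Heterozygous array 6 had 519.7 units in Mapk10 1448342_at, above the 326.9 of the next heterozygous array, and without it the difference of that probe set was -0.02.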

How the results depend on the processing

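The 29 alternatives were 15 fits without 1 array, 13 other planned settings, and the fit without the 4 arrays of highest Actb ratio, which was chosen after seeing the data. The count of kinase probe sets that passed stayed at 0 except for 1 under the trended and robust prior (Mapk10 1437195_x_at, 0.86), 1 without those 4 arrays (Map3k1 1443540_at, 1.97) and 0 to 1 when single arrays were left out. The count of kinase probe sets at an unadjusted p under 0.05 was 4, and became 2 with the atrial marker mean, 2 of the 7 tested with the brightest probe set per gene, and 4 to 8 without single arrays, the 8 (5 higher, 3 lower) without heterozygous array 2. No JNK pathway gene passed in any of the 29. The count over all probe sets was 98 and became 192 with the filter at 6, 287 with the floor at 6, 65 with median centring or quantile normalization, 312 with the trended and robust prior, 1 with the replicate block, 0 with the atrial marker mean as a covariate, and 17 to 150 without single arrays. The median centring gave 51 higher and 14 lower, quantile normalization 37 and 28, against 35 and 63 before.

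The differences below changed sign, and none passed the threshold in either fit. Median centring gave 0.12 for Mapk8 1420932_at, 0.0083 for Map3k2 1455597_at, 0.0359 for Mapk9 1421876_at, 0.07 for Map2k4 1426233_at, 0.18 for Mapk8 1437045_at and 0.14 for Mapk8 1440856_at. Quantile normalization gave 0.13 for Mapk8 1437045_at. The Actb ratio gave 0.0364 for Mapk9 1421876_at and 0.0349 for Map2k4 1426233_at. The atrial marker mean gave 0.10 for Mapk8 1420932_at, -0.49 for Map3k2 1422250_at, 0.63 for Map2k4 1426233_at, 0.33 for Mapk8 1437045_at, 0.29 for Mapk10 1458513_at and 0.20 for Dusp8. The mean of probe sets per gene gave 0.23 for Mapk8 and -0.11 for Mapk10. Without the 4 arrays, Map3k1 1424850_at was at -0.0696 and Mapk9 1421876_at at 0.19. Without single arrays the ranges were -0.0646 to 0.17 for Map3k1 1424850_at, -0.12 to 0.64 for Map3k2 1422250_at, -0.022 to 0.17 for Mapk10 1448342_at, -0.22 to 0.0926 for Mapk8 1437045_at and -0.13 to 0.0109 for Mapk8 1440856_at. The cause of these changes was not tested.

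Same-numbered mice did not deviate together (r from -0.06 to 0.06 over 7 numbers, and 1 of 7 correlated best with its own number), so no pairing by number was detected. The fit with the replicate block also left out control array 8, whose number no heterozygous mouse has. In that fit 0 kinase probe sets and 1 of all probe sets passed, and the difference of Mapk10 1437195_x_at was 0.96 (adjusted p = 0.182). Leaving out control array 8 without a block gave the same 0.96 (adjusted p = 0.0731), and 73 of all probe sets passed. Weak signals limit what can be seen in 4 of the 20 kinase probe sets.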
